A study of Homo sapiens with 18 samples.

Results

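The ERBB receptors and the genes that restrain them were examined as 8 members, the receptor genes EGFR, ERBB2, ERBB3 and ERBB4 and the negative regulators ERRFI1, LRIG1, LRIG2 and LRIG3. They were taken by gene name from the 19901 genes of the count table, and all 8 were found and passed the filter on low counts that left 15475 genes for testing. mRNA was sequenced from 18 libraries of 3 head and neck squamous cell carcinoma (HNSCC) cell lines, with 3 untreated control libraries and 3 libraries of cells treated with 50 ng/mL hepatocyte growth factor (HGF), the ligand of the Met receptor, in each line. FaDu comes from a primary hypopharyngeal tumor, Detroit 562 from a metastasis of a pharyngeal tumor and SCC-9 from a primary tongue tumor. Each is a single established line. The culture medium was MEM-α for Detroit 562 and FaDu, whereas SCC-9 grew in a DMEM F12 medium that also held HEPES and hydrocortisone, so that for SCC-9 the line and its medium cannot be told apart. The sample records and the methods of the study give 16 h of treatment, whereas the series record gives 48 h, and 16 h is used here.

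ERBB receptors are tyrosine kinases of the cell surface that pair with each other when a ligand binds and then activate the MAPK and PI3K cascades. EGFR binds EGF, TGFα and amphiregulin, ERBB3 and ERBB4 bind neuregulins, and ERBB2 has no known ligand of its own but is a favoured partner of the others. ERRFI1, also called MIG6, binds and blocks the active kinase as part of a feedback loop, and LRIG1 promotes the breakdown of ERBB receptors, while LRIG2 and LRIG3 are related membrane proteins. EGFR is abundant in many HNSCC tumors.

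The total count on genes was between 35304770 and 44003970 per library, with a median of 40138919, and 0 pairs of libraries were identical. All 9 epithelial markers that were checked, among them CDH1, KRT5 and KRT14, had at least 10 counts in every library of every line. The labels do not say that the libraries of a group came from separate cultures. The methods say that the experiment was repeated more than once, without tying the repeats to the replicate numbers. The p-values measure the spread between these libraries. Libraries with the same replicate number deviated together, and values from a fit blocked on that number are given where they change a call of a member or a listed gene. A gene was called when its Benjamini-Hochberg adjusted p in edgeR's quasi-likelihood test was below 0.1 and its log2 fold change (log2FC) was 0.4 or more, up or down.

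To ask which receptors and regulators the untreated lines carried, levels were compared per length, as TMM-scaled reads divided by exon length and library size (RPKM). Counts were taken over the whole extent of a gene, introns included, and divided by the length of its exons. EGFR stood first in every line, with 34.8 ± 0.643 RPKM for Detroit 562, 33.9 ± 2.74 for FaDu and 32.5 ± 1.13 for SCC-9 (mean ± SD, n = 3). It lay above 90.9% of tested genes with a known length in Detroit 562, and above 91.2% (FaDu) and 91.3% (SCC-9) in the other lines.

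ERBB2 reached 13.6 ± 1.37, 12.8 ± 1.27 and 14.3 ± 0.506 RPKM in Detroit 562, FaDu and SCC-9. ERBB3 reached 3.69 ± 0.137, 4.49 ± 0.237 and 4.22 ± 0.504 RPKM. Among the receptors the order EGFR, ERBB2, ERBB3 and ERBB4 was the same in all 3 lines, and no control library of one receptor overlapped those of the next. ERBB4 was close to the limit of detection, with 10.2 to 22.6 normalized counts per control library spread over a gene of 1163125 bases, and its control means lay between 0.0261 and 0.0377 RPKM.

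The regulators took different places in each line. In Detroit 562, LRIG3 at 15.4 ± 0.612 RPKM stood second of the 8 members, with control libraries that overlapped those of ERBB2, and ERRFI1 followed at 11.0 ± 0.634. In SCC-9, ERRFI1 at 13.6 ± 0.442 overlapped ERBB2, and LRIG3 was at 3.04 ± 0.146. In FaDu, ERRFI1 at 4.05 ± 0.752 overlapped ERBB3, and LRIG2 at 2.09 ± 0.297 overlapped LRIG3 at 2.03 ± 0.143. All other neighbours in the order of a line were separated by their control libraries. The lengths used join all annotated exons of a gene, 10321 bases for ERBB2, 5875 for LRIG3 and 4179 for ERRFI1. Their longest transcripts have 4930, 4046 and 3097 bases. The places and overlaps of the regulators therefore depend on the choice of length.

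**Figure D1:**
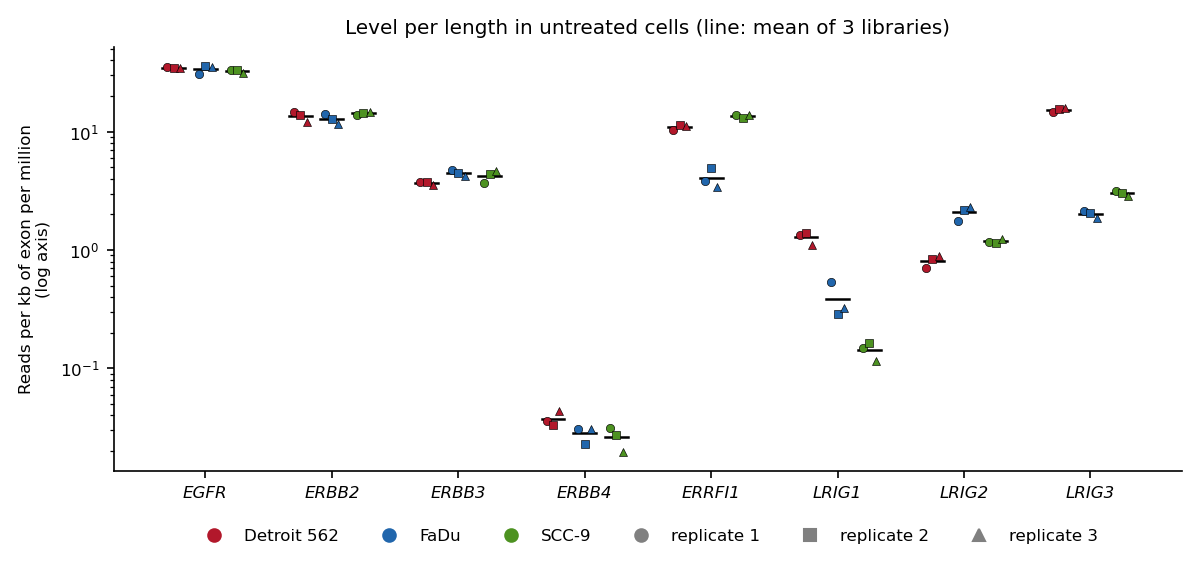
Level of each member in untreated cells, in RPKM on a log axis, with 1 point per control library (symbols give the replicate number), colors for the 3 cell lines and a line at the mean of 3 libraries. The EGFR, ERBB2 and ERBB3 points of the 3 lines lie side by side, while LRIG3 and LRIG1 are highest in Detroit 562, ERRFI1 is lowest in FaDu and LRIG2 is highest in FaDu.

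The receptors differed little between the untreated lines and the regulators differed widely. EGFR, ERBB2 and ERBB3 were called in 0 of the 3 pairs of lines, in edgeR with or without a replicate factor shared by the lines (which called 61.6%, 65.8% and 64.5% of all genes) and in DESeq2. The log2 difference of EGFR was 0.04 between Detroit 562 and FaDu (95% interval -0.18 to 0.25), 0.10 between Detroit 562 and SCC-9 (-0.11 to 0.31) and 0.06 between FaDu and SCC-9 (-0.15 to 0.28). For ERBB2 the 3 differences were 0.09, -0.08 and -0.16. ERBB3 was lower in Detroit 562 than in FaDu by a log2 difference of -0.28 (edgeR's quasi-likelihood test, adjusted p = 0.0247), which is below the minimum fold change, and it was at an unadjusted p of 0.0877 against SCC-9.

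Of the 8 members, 4 were called between Detroit 562 and FaDu, where 61% of all tested genes were called, 4 between Detroit 562 and SCC-9 (65.4% of all genes) and 4 between FaDu and SCC-9 (64.2% of all genes). LRIG1, LRIG2 and LRIG3 were called in every pair and ERRFI1 in both pairs with FaDu. Beside those shares the members did not stand out by their number of calls.

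LRIG3 had 3446, 3668 and 3715 normalized counts in the Detroit 562 controls, 505, 487 and 440 in the FaDu controls and 747, 718 and 679 in the SCC-9 controls. Every Detroit 562 library lay above every library of the other lines. The mean was 7.56-fold that of FaDu, a log2 difference of 2.92 (SE 0.0814, adjusted p = 2.43e-14 from edgeR's quasi-likelihood test), and 5.05-fold that of SCC-9 (log2 difference 2.34, SE 0.0790, adjusted p = 1.49e-13). SCC-9 was above FaDu by less, with a log2 difference of -0.58 for FaDu minus SCC-9 (adjusted p = 4.10e-06).

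LRIG1 had 378, 392 and 309 normalized counts in the Detroit 562 controls, 152, 81.4 and 92.0 in those of FaDu and 42.1, 46.6 and 32.6 in those of SCC-9. The 3 lines did not overlap. Detroit 562 was 8.90-fold above SCC-9 (log2 difference 3.15, SE 0.218, adjusted p = 8.82e-10 from edgeR's quasi-likelihood test) and 3.32-fold above FaDu (1.73, adjusted p = 5.68e-07). FaDu control 1 stood above the other FaDu controls, and without it the log2 difference of FaDu minus SCC-9 was 1.09 in place of 1.42 (adjusted p = 1.98e-05 with all libraries), still called.

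LRIG2 ran the other way, with 354, 419 and 442 normalized counts in the Detroit 562 controls, against 876, 1094 and 1158 for FaDu and 586, 576 and 621 for SCC-9. FaDu was highest, SCC-9 intermediate and Detroit 562 lowest, without overlap. The log2 difference was -1.36 for Detroit 562 minus FaDu (SE 0.163, adjusted p = 9.54e-07 from edgeR's quasi-likelihood test), -0.55 for Detroit 562 minus SCC-9 (adjusted p = 0.00543) and 0.81 for FaDu minus SCC-9 (adjusted p = 0.000206).

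ERRFI1 had 1713, 1912 and 1875 normalized counts in the Detroit 562 controls, 641, 818 and 575 in the FaDu controls and 2327, 2185 and 2292 in the SCC-9 controls. FaDu was the low line, and SCC-9 lay above Detroit 562 without overlap. Detroit 562 exceeded FaDu by 2.71-fold (log2 difference 1.44, SE 0.196, adjusted p = 4.72e-06 from edgeR's quasi-likelihood test), and FaDu minus SCC-9 gave -1.74 (adjusted p = 4.65e-07). The difference of -0.31 between Detroit 562 and SCC-9 did not pass (adjusted p = 0.149, 95% interval -0.71 to 0.09).

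ERBB4 was called between Detroit 562 and SCC-9, on 16 to 21 raw counts against 10 to 17 per control library. The log2 difference of 0.52 (SE 0.264, adjusted p = 0.0921 from edgeR's quasi-likelihood test) was not called with upper-quartile scaling (adjusted p = 0.115), without the filter (0.117) or by DESeq2 (0.238 with its fold change prior, 0.221 without). It was also lost without Detroit 562 control 1 (0.117) or 3 (0.247) and without SCC-9 control 2 (0.118) or 3 (0.292). A difference between the lines was therefore not secured at this depth. In the exact permutation test, two-sided, no single gene can pass below p = 0.1 with 3 libraries against 3.

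The 6 nearest tested neighbours on the chromosome, 3 on either side, were set beside each member. Of the neighbours of LRIG3 on chromosome 12, 4 of 6 were called higher in Detroit 562 than in FaDu and 4 of 6 higher than in SCC-9, where 31.2% and 31.4% of all genes were called higher. SLC16A7, 675545 bases away, had a log2 difference of 1.54 from FaDu and 2.07 from SCC-9, and ATP23, 914880 bases away on the other side, of 1.38 and 0.93. All lay below the 2.92 and 2.34 of LRIG3 itself. Neighbours called in the direction of the member were also 4 of 6 for ERRFI1 against FaDu (1 the other way). For LRIG2, which was lower in Detroit 562, they were 4 of 6 against FaDu (0 the other way) and against SCC-9 (1 the other way). Of all genes, 61% and 65.4% were called in either direction in these pairs. For LRIG1, 0 of 6 neighbours were called in either direction between Detroit 562 and FaDu (61% of all genes were called). Its overlapping neighbour SLC25A26 differed by -0.06 there. Against SCC-9, 2 of the 6 were called higher in Detroit 562, as LRIG1 was, and 1 lower (65.4% of all genes were called). Copy number was not measured here.

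Because LRIG3 and ERRFI1 differed strongly between lines and EGFR did not, the 250 bases upstream of their start sites are shown, from RefSeq on GRCh38.p14, each written 5′ to 3′ on the strand of its gene. LRIG1 and LRIG2 also differed between lines, and their windows are not printed. EGFR is at chr7:55018767-55019016 on the plus strand, ERRFI1 at chr1:8026310-8026559 on the minus strand and LRIG3 at chr12:58920505-58920754 on the minus strand. Capitals mark matches on either strand to motifs of 7 kinds, TGANTCA for AP-1, CCGGAAG for ETS factors, GCCNNNGGC for AP-2, CCAAT for the CCAAT box, GGGCGG for the GC box, TATAAA for the TATA box and CACGTG for the E-box, and overlapping matches run together.
EGFR: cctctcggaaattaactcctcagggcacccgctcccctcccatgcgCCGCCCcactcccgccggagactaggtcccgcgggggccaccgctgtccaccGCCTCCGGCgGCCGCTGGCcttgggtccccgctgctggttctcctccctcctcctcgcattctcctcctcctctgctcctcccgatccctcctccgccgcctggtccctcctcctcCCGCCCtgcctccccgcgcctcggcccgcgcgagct
ERRFI1: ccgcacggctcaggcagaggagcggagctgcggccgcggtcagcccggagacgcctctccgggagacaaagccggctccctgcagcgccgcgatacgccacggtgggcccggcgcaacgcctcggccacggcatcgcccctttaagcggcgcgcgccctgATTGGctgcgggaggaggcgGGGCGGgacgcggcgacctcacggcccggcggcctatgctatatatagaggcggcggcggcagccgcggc
LRIG3: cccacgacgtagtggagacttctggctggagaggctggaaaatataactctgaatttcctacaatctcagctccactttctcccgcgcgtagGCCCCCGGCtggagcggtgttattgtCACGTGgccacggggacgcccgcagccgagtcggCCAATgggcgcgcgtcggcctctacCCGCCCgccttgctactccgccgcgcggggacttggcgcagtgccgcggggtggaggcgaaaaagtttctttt

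The LRIG3 window held 1 match each to the E-box, AP-2, CCAAT box and GC box motifs, which are present in 6.5%, 19.7%, 33.0% and 42.3% of 27305 promoter windows of this length. The EGFR window held 2 matches to the AP-2 motif and 2 to the GC box, and that of ERRFI1 held 1 match each to the CCAAT box and the GC box. The window of ERBB2 lies within annotated exons and is not printed. It held 1 match to the AP-1 motif (present in 6.6% of windows), 2 to the ETS motif (8.8%) and 1 to the CCAAT box. The TATA motif is present in 11.1% of windows and was found in none of these. These matches describe letters only and no binding was measured.

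To ask what HGF did to the members, treated and control libraries were compared within each line. In Detroit 562, 2 of the 8 members were called, both lower, where 17.9% of all tested genes were called and 11.7% were called lower. The 2 were ERBB2 and ERBB3, and they were called in every alternative that was run, each library left out included. EGFR, ERBB4 and the 4 regulators were not called. In bulk RNA, fewer cells that carry a transcript and less transcript per cell cannot be told apart.

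ERBB2 lies on chromosome 17 from 39687914 to 39730426 (GRCh38, plus strand). In Detroit 562 it had 6078, 5739 and 4977 normalized counts in controls 1, 2 and 3 and 4188, 3991 and 3290 with HGF. All 3 treated libraries lay below all 3 controls, and each was below the control of the same number by a similar step (log2 ratios of -0.54, -0.52 and -0.60). The mean fell by 31.7%, from 5598 ± 564 to 3823 ± 472, a log2FC of -0.55 (SE 0.0968, 95% interval -0.75 to -0.35, adjusted p = 0.00173 from edgeR's quasi-likelihood test). With each library left out in turn it ranged from -0.63 to -0.45, with adjusted p values from 0.000573 to 0.0158.

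ERBB3, the neuregulin receptor, lies on chromosome 12 from 56076799 to 56103505 (plus strand). Its normalized counts in Detroit 562 were 1764, 1763 and 1652 in control and 1178, 1345 and 1054 with HGF. Again no treated library reached a control. The mean fell by 30.9%, from 1726 ± 64.3 to 1192 ± 146, a log2FC of -0.53 (SE 0.108, 95% interval -0.76 to -0.31, adjusted p = 0.00337 from edgeR's quasi-likelihood test), and it ranged from -0.63 to -0.45 with each library left out.

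A gene named RP11-603J24.9 shares 2175 bases at the end of ERBB3 on the same strand, and reads there were counted for both genes. It also covers 4971 of the 9589 bases of PA2G4 and had 5876 to 11078 counts per library. With HGF in Detroit 562 it had a log2FC of 0.34 (adjusted p = 0.00813 from edgeR's quasi-likelihood test, below the minimum fold change), opposite in sign to ERBB3. How many shared reads the ERBB3 count holds was not tested.

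**Figure D2:**
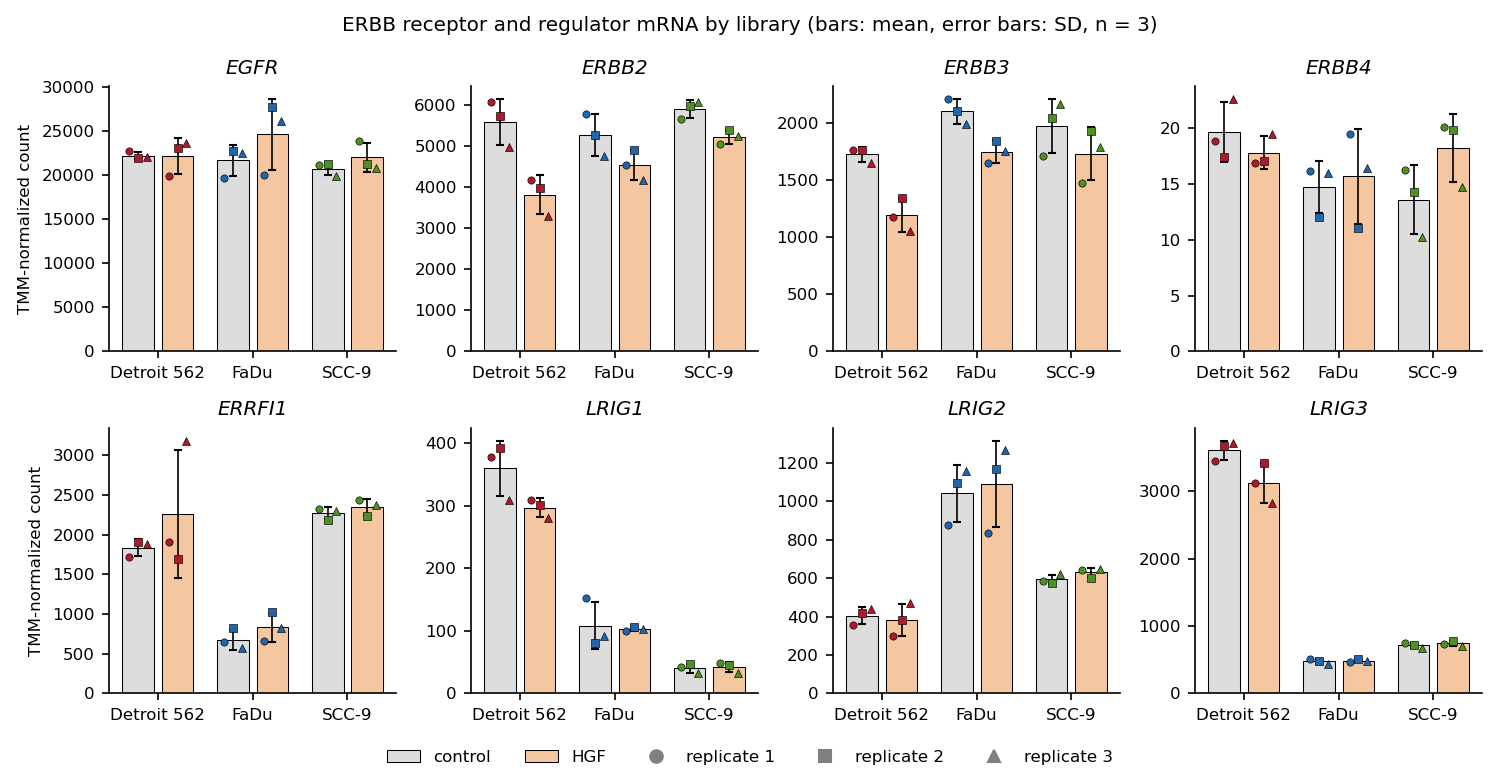
TMM-normalized counts of the 8 members, with bars at the mean and error bars of 1 SD over 3 libraries, gray for control and orange for HGF, and a symbol per library by replicate number. The 3 Detroit 562 libraries treated with HGF lie below the 3 controls for ERBB2 and for ERBB3, EGFR is level, and ERRFI1 in Detroit 562 is spread by a single treated library at 3182.

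The mean counts of the same receptors were also lower with HGF in the other lines, by smaller steps that were not called. In FaDu, ERBB2 had 5799, 5271 and 4754 normalized counts in control and 4555, 4898 and 4170 with HGF, and in SCC-9 5673, 5986 and 6069 in control and 5047, 5393 and 5240 with HGF. The groups overlapped in FaDu and did not in SCC-9. The log2FC was -0.22 in FaDu (95% interval -0.42 to -0.01, adjusted p = 0.609 from edgeR's quasi-likelihood test) and -0.18 in SCC-9 (-0.38 to 0.03, adjusted p = 1).

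ERBB3 had 2210, 2106 and 1987 normalized counts in the FaDu controls and 1645, 1843 and 1753 with HGF, and 1710, 2047 and 2165 in the SCC-9 controls and 1475, 1929 and 1790 with HGF. Here it was FaDu that showed no overlap and SCC-9 that did. The log2FC was -0.27 in FaDu (95% interval -0.49 to -0.04, adjusted p = 0.580 from edgeR's quasi-likelihood test) and -0.19 in SCC-9 (-0.41 to 0.04, adjusted p = 1).

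In FaDu, 0 of 8 members were called, with 2 at an unadjusted p under 0.05 (ERBB2 and ERBB3) and 0.0258% of all genes called. In SCC-9, 0 of 8 were called, with 0 at an unadjusted p under 0.05 and 0% of all genes called. DESeq2 called 0 members in both lines, beside 0.464% and 0.13% of all genes. Blocking on the replicate number raised the background to 5.6% in FaDu and 1.97% in SCC-9, and still 0 members were called (Detroit 562 kept ERBB2 and ERBB3 as the 2 called members, beside 21.5% of all genes). The adjusted p of the blocked fit was 0.00906 for ERBB2 and 0.0134 for ERBB3 in FaDu, and 0.0553 and 0.130 in SCC-9, at log2FCs short of 0.4. Over the 3 lines, all 9 of 9 pairs of libraries had less ERBB2, and all 9 had less ERBB3, with HGF than in control. Averaged over the lines, a contrast added after the data were seen, the log2FC was -0.31 for ERBB2 (adjusted p = 0.00340 from edgeR's quasi-likelihood test) and -0.33 for ERBB3 (adjusted p = 0.00406), where 6.89% of all genes passed the full rule (8.8% with the block) and neither receptor reached its minimum fold change. In that contrast 5338 of the 15475 tested genes had an unadjusted p under 0.05, so small shifts were common. How many tested genes had all 9 pairs in the same direction was not counted. The pair counts of ERBB2 and ERBB3 therefore stand without a background of all genes.

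Whether Detroit 562 responded more strongly was tested by the interaction of line and treatment, at an adjusted p below 0.1. Without the block 0 of 8 members differed between Detroit 562 and FaDu (0.239% of all genes) and 0 of 8 between Detroit 562 and SCC-9 (0.924% of all genes). At an unadjusted p under 0.05 there were 1 (ERBB2) and 3 (ERBB2, ERBB3 and LRIG3). The difference for ERBB2 was -0.33 against FaDu (adjusted p = 0.375 from edgeR's quasi-likelihood test) and -0.37 against SCC-9 (0.227). With the block 2 members differed from FaDu (19.1% of all genes) and 3 from SCC-9 (26.9% of all genes). For ERBB2 the blocked differences were -0.34 (adjusted p = 0.00547) and -0.38 (0.00167), and for ERBB3 -0.27 (0.0625) and -0.35 (0.0154). Between FaDu and SCC-9 edgeR found 0 members in either fit, with 0 at an unadjusted p under 0.05, 0% of all genes without the block and 1.32% with it. DESeq2 found 0 members in these 3 comparisons.

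**Figure D3:**
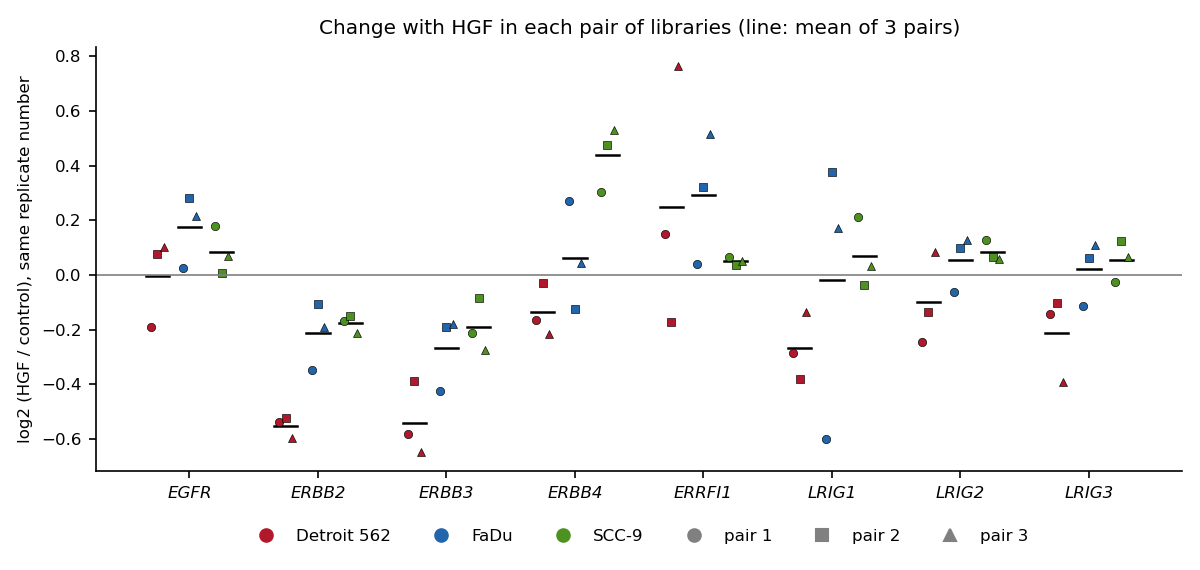
Log2 ratio of HGF to control for each pair of libraries with the same replicate number, with colors for the lines, symbols for the pairs and a line at the mean of 3 pairs. All 9 points of ERBB2 and all 9 of ERBB3 lie below 0, with those of ERBB2 in Detroit 562 between -0.60 and -0.52, while the other members have points on both sides of 0.

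EGFR, on chromosome 7 from 55019021 to 55211628 (plus strand), had 22663, 21905 and 22012 normalized counts in the Detroit 562 controls and 19849, 23075 and 23653 with HGF. The groups overlapped and their means were 22193 and 22192. The log2FC was -0.00 (95% interval -0.21 to 0.21, adjusted p = 1 from edgeR's quasi-likelihood test), so that a shift as large as that of ERBB2 lies outside its interval. FaDu gave 0.18 (adjusted p = 0.641, or 0.0847 with the block at a log2FC of 0.17, below the minimum fold change) and SCC-9 gave 0.09 (adjusted p = 1), and EGFR was higher with HGF in 8 of 9 pairs, none of them called.

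The make-up of the receptor mRNA was computed as the share of each receptor in the summed per-length level of the 4. In Detroit 562 EGFR made up 66.9 ± 1.72% of it in control and 74.5 ± 3.66% with HGF (n = 3). The corresponding shares were 66.2 ± 3.66% and 72.1 ± 3.38% for FaDu, and 63.7 ± 1.88% and 67.7 ± 2.67% for SCC-9. These shares restate the counts given above for the 3 receptors and are no further evidence. In Detroit 562 the shift came with level EGFR and lower ERBB2 and ERBB3, whereas in FaDu the EGFR counts were also higher with HGF.

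ERBB2 took 26.0% and 19.9% of the receptor level in control and HGF-treated Detroit 562, and ERBB3 7.08% and 5.46%. The ratio of ERBB2 to ERBB3 hardly moved, since its log2 was 1.88 ± 0.0973 in control and 1.86 ± 0.135 with HGF in Detroit 562. For FaDu it was 1.51 ± 0.0669 and 1.56 ± 0.113, and for SCC-9 1.77 ± 0.126 and 1.78 ± 0.153. In each line this shift was smaller than the spread between replicates (exact permutation test, p = 0.9, 0.5 and 0.9). Per EGFR, the log2 ratio of ERRFI1 went from -1.67 to -1.42 in Detroit 562, from -3.08 to -2.96 in FaDu and from -1.26 to -1.29 in SCC-9 (exact permutation test, p = 0.5, 0.6 and 0.7). That of LRIG1 went from -4.78 to -5.04 in Detroit 562, where it was lower in 3 of 3 pairs, from -6.51 to -6.71 in FaDu and from -7.84 to -7.85 in SCC-9 (exact permutation test, p = 0.2, 0.8 and 0.9). Shares within a library do not depend on how libraries are scaled, but they do depend on the length assigned to each gene.

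**Figure D4:**
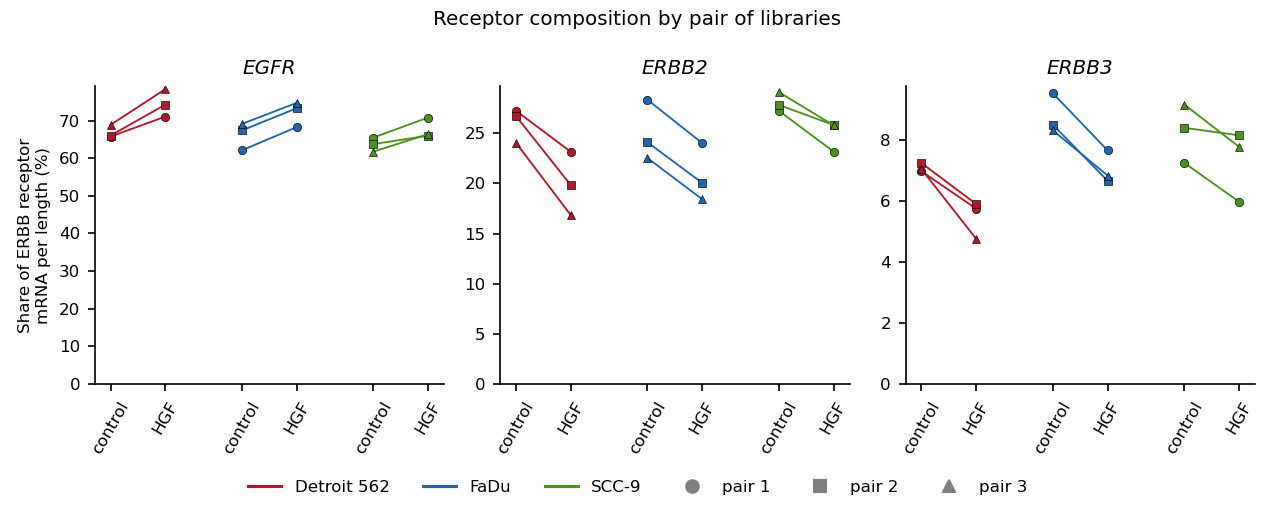
Share of EGFR, ERBB2 and ERBB3 in the summed per-length level of the 4 ERBB receptors, in percent, with a line from control to HGF for each pair of libraries and each axis starting at 0. All 9 lines for EGFR rise and all 9 for ERBB2 and for ERBB3 fall, with mean EGFR shares of 66.9% and 74.5% in Detroit 562.

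Among the regulators, ERRFI1 on chromosome 1 (8004404 to 8026308, minus strand) had 1713, 1912 and 1875 normalized counts in the Detroit 562 controls and 1902, 1696 and 3182 with HGF. A single treated library, HGF 3, stood far above all others. The log2FC was 0.30 (SE 0.189, adjusted p = 0.258 from edgeR's quasi-likelihood test), it was -0.03 without HGF 3, and ERRFI1 was called without HGF 2 (0.47, adjusted p = 0.0845). In FaDu the counts were 641, 818 and 575 in control and 659, 1023 and 820 with HGF (log2FC 0.30, adjusted p = 0.676), while SCC-9 gave 0.05 (adjusted p = 1). ERRFI1 was higher with HGF in 8 of 9 pairs and not called in any line.

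LRIG3, on chromosome 12 from 58872149 to 58920522 (minus strand), had 3446, 3668 and 3715 normalized counts in the Detroit 562 controls and 3118, 3420 and 2833 with HGF. The groups did not overlap. The log2FC of -0.21 (SE 0.0742, adjusted p = 0.0490 from edgeR's quasi-likelihood test) was short of the minimum fold change, and its adjusted p lay between 0.0215 and 0.206 with each library left out. The block gave -0.21 for LRIG3 in Detroit 562 (adjusted p = 0.00924 from the same test), also short of the minimum. The other lines gave 0.02 (FaDu) and 0.05 (SCC-9) without the block. With the block the response of LRIG3 in Detroit 562 differed from that in SCC-9 by -0.27 (adjusted p = 0.0538).

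LRIG1, on chromosome 3 from 66378797 to 66501263 (minus strand), had 378, 392 and 309 normalized counts in the Detroit 562 controls and 310, 301 and 281 with HGF. The highest treated library was just above the lowest control. Its log2FC was -0.28 (adjusted p = 0.299 from edgeR's quasi-likelihood test), with -0.07 in FaDu and 0.07 in SCC-9. The block gave -0.27 for LRIG1 in Detroit 562 (adjusted p = 0.0888 from the same test), below the minimum fold change. LRIG2, on chromosome 1 from 113073209 to 113132260 (plus strand), had a log2FC of -0.08 in Detroit 562, against 0.07 for FaDu and 0.08 for SCC-9. ERBB4, on chromosome 2 from 211375717 to 212538841 (minus strand), had 11 to 21 raw counts in treated libraries, and its log2FCs of -0.14, 0.09 and 0.42 had intervals that all included 0.

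GRB7, an adaptor that binds ERBB2 and ERBB3, lies 7501 bases beyond ERBB2 and fell in Detroit 562 from 843.5 ± 77.9 to 579.9 ± 6.39 normalized counts (log2FC -0.54, adjusted p = 0.00366 from edgeR's quasi-likelihood test). PGAP3, an enzyme of GPI-anchor lipid remodelling that overlaps the start of ERBB2 on the opposite strand, fell by 0.87 on the log2 scale (adjusted p = 0.001). They were the 2 of 6 neighbours of ERBB2 that were called, where 17.9% of all genes were called and 11.7% were called lower. MIEN1, which overlaps its other end, had a log2FC of -0.14 (adjusted p = 0.399). For ERBB3, 0 of 6 neighbours were called, and for ERBB4, itself not called, 3 of 6 were called lower.

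Of the pathway lists, the ligands had the most calls. In Detroit 562, 4 of 11 ligand genes rose (6.16% of all genes did) and 2 fell (11.7% of all genes did), with a median log2FC of 0.34 beside -0.01 over all tested genes. HBEGF rose from 108 ± 11.7 to 324 ± 126 normalized counts (log2FC 1.58, SE 0.248, adjusted p = 0.001 from edgeR's quasi-likelihood test). TGFA rose from 1584 ± 477 to 3171 ± 1340 (log2FC 1.00, adjusted p = 0.00898) and AREG, which codes for amphiregulin, from 1015 ± 306 to 1757 ± 344 (0.79, adjusted p = 0.0101). EREG, seventh by size among the ligands called with or without the block and named after its values were seen, rose by 0.47 (adjusted p = 0.0585). NRG4, a ligand of ERBB4, fell by 0.97 (adjusted p = 0.00527) and BTC by 0.78 (adjusted p = 0.0970). With the block, where 21.5% of all genes were called in Detroit 562, EGF itself was also called lower, on 15.6 ± 3.99 normalized counts in control and 8.31 ± 2.42 with HGF (log2FC -0.90, adjusted p = 0.0685, against 0.184 without the block).

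In FaDu the median log2FC of the 11 ligands was 0.50 beside -0.00 over all genes, and 0 were called without the block. With the block 5 of 11 rose (2% of all genes did), namely NRG1 by 0.74 (adjusted p = 6.46e-05 from edgeR's quasi-likelihood test), HBEGF by 0.65 (0.00225), AREG by 0.62 (0.000619), TGFA by 0.55 (0.000360) and EREG by 0.51 (0.00429). In SCC-9 the median was 0.11 beside 0.00, with 0 called without the block. The block there called 2 of 11 (0.562% of all genes rose), TGFA at 0.45 (adjusted p = 0.00248) and AREG at 0.41 (0.0120).

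The other lists moved in few genes, and their counts are to be read beside the 6.16% of all genes called higher and the 11.7% called lower in Detroit 562. Of 7 genes that act in ligand shedding, the protease gene ADAM12 rose in Detroit 562 (log2FC 0.85, adjusted p = 0.0574 from edgeR's quasi-likelihood test) and RHBDF1, a partner of the sheddase ADAM17, fell by 0.60 (adjusted p = 0.00907). Of 23 tested adaptors and proximal effectors 0 rose and 2 fell there, GRB7 and the PI3K subunit gene PIK3R3 (by 0.83, adjusted p = 0.000891). One gene rose in each of the remaining lists, SOCS3 among 11 ubiquitin ligases and SOCS genes (0.81, adjusted p = 0.0354), PTPN12 among 6 tyrosine phosphatases (0.53, adjusted p = 0.00990), STAM among 13 genes of endocytosis and sorting (0.48, adjusted p = 0.0142) and the HSP90 cochaperone gene CDC37 among 5 chaperones and anchors (0.52, adjusted p = 0.000974). With the block Detroit 562 also had the adaptor gene SHC3, higher (0.73, adjusted p = 0.0257), and the ubiquitin ligase gene CBLB, lower (-0.47, adjusted p = 0.00347). FaDu and SCC-9 had 0 calls in these 6 lists without the block, and with it FaDu had ADAM12 (0.72, adjusted p = 0.00883), GAB2 (-0.53, 0.0409, where 3.6% of all genes fell) and SOCS3 (0.47, 0.00138).

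**Figure D5:**
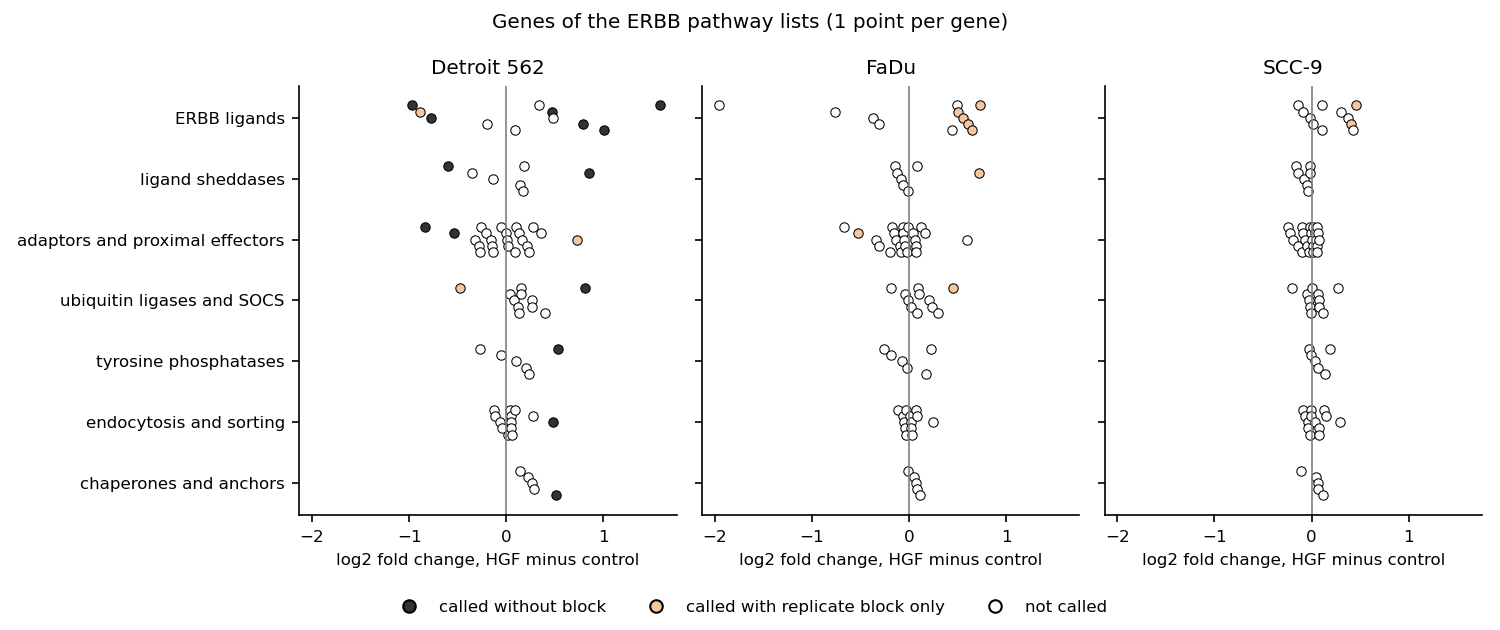
Log2FC of HGF minus control for the genes of 7 pathway lists in the 3 lines, with 1 point per gene, filled dark where called without the block, orange where called with the replicate block alone and open where not called. In Detroit 562 dark points stand on both sides of 0 among the ligands, up to HBEGF at 1.58, and in FaDu and SCC-9 no point is dark.

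Some epithelial markers were lower with HGF in Detroit 562, as the 2 receptors were, and the others were not called. The median log2FC of the 9 was -0.27, beside -0.01 over all tested genes. CDH1, which codes for E-cadherin, fell from 12081 ± 1358 to 8586 ± 209 normalized counts (log2FC -0.49, adjusted p = 0.00364 from edgeR's quasi-likelihood test), KRT8 by 0.76 (adjusted p = 0.0250) and KRT5 by 0.90 (adjusted p = 0.0451), 3 of 9 markers called lower, where 11.7% of all genes were. The summed level of the 9 ran from 5864 to 8191 CPM in control and from 4061 to 5876 CPM with HGF. The called genes KRT5 and KRT8 made up a large part of that sum. Their mean normalized counts were 84173 and 84340 in control and 45144 and 49778 with HGF. The summed level of 6 fibroblast markers, of which 3 passed the filter on low counts, was 29.8 to 54.3 CPM in control and 15.0 to 27.6 CPM with HGF. COL1A1 (log2FC -0.77) and COL1A2 (-1.04) were called lower, and PDGFRB was at 0 in every Detroit 562 library. The sum of 6 immune markers, of which 2 passed, was 20.4 to 40.6 and 37.4 to 56.3 CPM, with CD68 called higher (0.66). Most of that sum was CD68, with a mean of 1107.5 normalized counts in control and 1750.5 with HGF. The sum of 4 endothelial markers was 1.21 to 2.99 and 0.639 to 1.16 CPM, with VWF called lower (-2.12). In FaDu 0 of these markers were called without the block, and with it, where 5.6% of all genes were called, KRT5 (-0.58, adjusted p = 0.00147), COL1A1 (-0.59, 0.00298), VWF (-1.32, 0.00125) and CDH5 (-0.86, 0.0253) were called lower and CD68 higher (0.51, 0.00164). SCC-9 had 0 calls in either fit. The part of these markers in the lower ERBB2 and ERBB3 counts was not tested.

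To place the members among other genes, the 3 tested genes with the most similar log2 CPM over the 18 libraries were found for each. For ERBB2 they were SYNPO (Pearson r = 0.981), UBE3B (0.937) and PDE6D (0.935), and for ERBB3 PRSS16 (0.942), ZBTB5 (0.933) and PLD2 (0.932). For LRIG3 they were MUC5B, TANGO2 and MALL (0.995, 0.995 and 0.994), for LRIG1 RGMA, EHBP1L1 and RPH3AL (0.987, 0.985 and 0.984), for LRIG2 ZNF81, RBM15 and ANKRD10 (0.985, 0.983 and 0.982) and for ERRFI1 CCDC68, ELK3 and MAP3K20 (0.974, 0.974 and 0.973). EGFR had its highest values with SETD2, ASH1L and CEP290 (0.831, 0.823 and 0.816) and ERBB4 with PDCD6, IL18BP and AHRR (0.712, 0.688 and 0.670). The 18 libraries share 3 lines, so that these values mostly describe differences between lines, and the genes were picked as the highest of all tested.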

How the data were processed

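Per the submitters' notes and the study's methods, the authors trimmed stranded mRNA reads with cutadapt (1.16 in the submitters' notes), mapped them with STAR 2.5.2b to GRCh38.p12 and used bedtools to count, on each gene's strand, reads within its whole extent. Reads in introns therefore count, and same-strand genes that overlap share reads. The deposited table holds these counts unscaled.

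Members and gene lists were chosen with earlier results of these data known. Analysis used R 4.3.3 and edgeR 4.0.16 (filterByExpr on 6 groups, TMM factors, quasi-likelihood test, all 18 libraries in 1 model), with DESeq2 1.42.0 as an alternative, and p-values were adjusted over 15475 genes. Normalized counts are TMM-scaled to a common library size. Deviations from group means correlated between same-numbered control and HGF libraries (r from 0.161 to 0.563, median 0.332, in 9 pairs) more than between others (-0.489 to 0.218, median -0.193). Deviations cancel within a group, so the low values between others follow in part from the high ones. In Detroit 562, control 1 with HGF 2 (0.218) exceeded control 2 with HGF 2 (0.161). The labels do not state a pairing. A block within each line was fitted too, taking the numbers as pairs. Fits were tested on simulated counts. Named genes were the members, at most 6 genes per list and line, by size, of those called with or without the block, the 3 most similar genes per member and chromosomal neighbours.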

Additional observations from a re-analysis of the deposited data

Results flagged for a closer look

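In the fit blocked on replicate number, 2 of 8 members passed edgeR's interaction test between Detroit 562 and FaDu, beside 19.1% of all genes, and 3 of 8 between Detroit 562 and SCC-9, beside 26.9% of all genes. ERBB2 differed between Detroit 562 and FaDu by a log2 of -0.3378 and between Detroit 562 and SCC-9 by -0.3756, and ERBB3 by -0.2722 and -0.3481. LRIG3 differed between Detroit 562 and SCC-9 by -0.2651. In these 5 cases the level with HGF relative to control was lower in Detroit 562 than in the line it was compared with, and without the block 0 of the 5 passed.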

How the results depend on the processing

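Beside the differences in response, which had no minimum fold change, the count of members called moved in several comparisons. With HGF in Detroit 562 it went from 2 to 3 without a minimum fold change (LRIG3 added). It also went from 2 to 3 there without HGF 2 (ERRFI1 added). Between untreated Detroit 562 and FaDu it went from 4 to 5 without a minimum fold change (ERBB3 added). Between untreated Detroit 562 and SCC-9 it ranged from 3 to 4 with single libraries left out, as the ERBB4 call was lost in some fits. With the replicate block within each line, 2 members in place of 0 differed between Detroit 562 and FaDu and 3 in place of 0 between Detroit 562 and SCC-9, and leaving out single libraries gave 0 to 1 for the latter (ERBB2, without Detroit 562 control 3). The block changed no other call of a member. For untreated lines a block within each line is confounded with the line, so a replicate factor shared by the lines was used, chosen after seeing the data, and it changed no call. The 50-count filter removed ERBB4.

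Values near 0 changed sign. The EGFR response in Detroit 562 was 0.0097 without the filter and 0.0026 in a fit of that line alone. The difference in ERRFI1 response between Detroit 562 and FaDu, 0.0016 as reported, was -0.041 with the block, -0.017 with DESeq2 size factors, -0.010 with upper-quartile factors, -0.0040 without the filter, -0.011 with the 50-count filter, -0.0155 and -0.0159 in DESeq2 with and without its prior and -0.0075 in a fit of those lines. The cause was not tested.

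With each library left out, log2 values in Detroit 562 ranged from -0.048 to 0.074 for EGFR, -0.026 to 0.47 for ERRFI1 and -0.25 to 0.069 for LRIG2. In FaDu they ranged from -0.097 to 0.28 for ERBB4, -0.24 to 0.25 for LRIG1, -0.046 to 0.22 for LRIG2 and -0.037 to 0.061 for LRIG3, and in SCC-9 from -0.061 to 0.22 for LRIG1. Differences in response ranged from -0.33 to 0.17 (ERRFI1) and -0.32 to 0.0040 (LRIG2) for Detroit 562 minus FaDu and from -0.076 to 0.42 (ERRFI1) for Detroit 562 minus SCC-9. For FaDu minus SCC-9 they ranged from -0.11 to 0.034 (ERBB2), -0.17 to 0.025 (ERBB3), -0.31 to 0.18 (LRIG1), -0.13 to 0.14 (LRIG2) and -0.091 to 0.016 (LRIG3). Untreated differences ranged from -0.028 to 0.074 for EGFR (Detroit 562 minus FaDu) and -0.046 to 0.27 for ERBB4 (FaDu minus SCC-9). Averaged over lines, LRIG1 ranged from -0.15 to 0.015 and LRIG2 from -0.035 to 0.075. Shifts of log2 ratios to EGFR ranged from -0.023 to 0.22 (ERRFI1, FaDu), -0.080 to 0.0029 (ERRFI1, SCC-9), -0.41 to 0.15 (LRIG1, FaDu) and -0.13 to 0.11 (LRIG1, SCC-9).

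With 3 libraries per group single-gene permutation tests cannot go below p = 0.1, ERBB4 counts are too low for a comparison, and per-length levels depend on intronic reads and the exon lengths used.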
